A study of Homo sapiens with 18 samples.

Results

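Acetylation of histone H3 at lysine 27 (H3K27ac) was compared between valproic acid-treated (VPA) and untreated (CTRL) HEK293T cells, a transformed line derived from human embryonic kidney. The comparison used the 6 H3K27ac ChIP-seq peak lists among the 18 samples of the series, 3 from untreated cells and 3 from cells given 1 mM VPA for 1 day, taken by their sample labels. These lists held 205931 of the 506359 peaks of the 12 ChIP libraries. All 6 libraries came from the same cell line, and nothing in the labels says whether the replicates were separate cultures, so p-values measure the spread between these libraries, which may be technical.

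H3K27ac is placed by acetyltransferases such as EP300 and CREBBP, is removed by histone deacetylases, and marks active promoters and enhancers. Proteins with bromodomains bind acetylated lysines. VPA inhibits class I and class IIa histone deacetylases and is used as an antiepileptic drug. A peak here is a stretch of the genome where the authors' peak caller found more ChIP fragments than in the local background, and its summit is the position with the most fragments. The level of a promoter is the number of fragments over the highest summit of the peaks that overlap the 1 kb on either side of the transcription start site (TSS), recovered from the peak caller's values.

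List length ran from 26299 to 29799 peaks without VPA and from 38441 to 40992 with it. Read totals are not part of the lists and depth is therefore unknown, but the background coverage, which moves with depth, was 3.51 to 3.79 fragments in CTRL and 3.66 to 3.95 in VPA. At promoters, the median summit had 461, 365 and 330 fragments in CTRL replicates 1, 2 and 3 and 360, 271 and 265 in the VPA replicates. Replicate 1 stood apart in both treatments: its median fold enrichment at promoters was 9.68 in CTRL and 8.49 in VPA, while the other 4 libraries had 21.8 to 27.9. The promoters of 5 of 8 markers of this line (VIM, NEFL, NEFM, INA and CDH2) had a peak in all 6 libraries, NES had one in 5, and PAX2 and EYA1 had none. Of the 8 markers each of liver, blood, muscle and germ cells, 0 had a promoter peak in all 6 libraries. In single libraries 0 or 1 of the muscle markers and 0 of the others had one in CTRL, and 0 to 3 of a list had one in VPA.

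Examples of promoters with the largest changes are shown first by their sequence, with their CpG content, the number of CG dinucleotides. For each, the 250 bases before the TSS are given in the direction of transcription (RefSeq, GRCh38.p14), with every CG in capitals. SLITRK1, a neuronal membrane protein that controls neurite growth, and ALDOC, the brain form of the glycolytic enzyme aldolase, had the largest rises among promoters whose annotated start matched RefSeq. HOXD8, a homeobox transcription factor of body patterning, had the largest fall among them. TNFAIP8L2, a regulator of immune signalling, stands for the promoters that had a peak in every VPA library and in no CTRL library.
SLITRK1, chr13:83882475-83882724, minus strand, 6 CG: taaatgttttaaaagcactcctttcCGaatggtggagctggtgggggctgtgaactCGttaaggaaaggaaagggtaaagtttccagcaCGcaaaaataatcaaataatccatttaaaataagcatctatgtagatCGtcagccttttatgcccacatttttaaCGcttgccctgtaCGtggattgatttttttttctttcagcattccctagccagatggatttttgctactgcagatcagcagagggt
ALDOC, chr17:28576896-28577145, minus strand, 18 CG: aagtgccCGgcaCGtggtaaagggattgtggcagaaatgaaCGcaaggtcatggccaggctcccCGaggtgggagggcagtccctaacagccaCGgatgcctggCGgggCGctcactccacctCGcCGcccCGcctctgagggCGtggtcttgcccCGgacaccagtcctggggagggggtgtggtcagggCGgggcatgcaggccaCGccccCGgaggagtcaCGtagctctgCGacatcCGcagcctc
HOXD8, chr2:176129455-176129704, plus strand, 28 CG: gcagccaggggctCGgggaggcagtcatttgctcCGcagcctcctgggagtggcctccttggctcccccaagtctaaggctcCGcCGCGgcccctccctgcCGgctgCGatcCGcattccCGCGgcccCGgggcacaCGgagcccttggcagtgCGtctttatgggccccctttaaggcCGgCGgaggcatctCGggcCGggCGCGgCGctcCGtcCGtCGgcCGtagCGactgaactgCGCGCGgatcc
TNFAIP8L2, chr1:151156399-151156648, plus strand, 2 CG: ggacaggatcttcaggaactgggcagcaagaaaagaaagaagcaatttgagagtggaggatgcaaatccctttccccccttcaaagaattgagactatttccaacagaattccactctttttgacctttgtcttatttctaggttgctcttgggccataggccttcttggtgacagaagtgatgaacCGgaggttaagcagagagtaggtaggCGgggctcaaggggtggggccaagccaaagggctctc
Over all protein-coding promoters matched to RefSeq, 14616 of 19103, the median was 18 CG in such a window, and 32.3% had 10 or fewer. As groups, rising and falling promoters (defined below) differed less than these examples. In the 501 bases around the TSS, the 2059 that rose had a median of 40 CG (quartiles 29 and 52). The 2633 that fell had 47 (34 and 59), beside 44 for all promoters with a peak in every library.

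The first question was how many genes carried H3K27ac. Of 19103 protein-coding promoters on chromosomes 1 to 22, 11217, 12178 and 12149 had a peak in CTRL and 11684, 12542 and 12451 in VPA. The means were 11848 ± 547 and 12226 ± 471 (SD, n = 3 each), so the treatments overlapped and the difference was smaller than the spread (exact permutation test, two-sided p = 0.5, adjusted p = 0.5 over 4 tests). Each VPA library nevertheless had more promoters than the CTRL library of the same number, by 467, 364 and 302. At equal list length the difference of the means was 71.7 promoters instead of 377.7, and without CTRL replicate 1 it was 62.2. Gene bodies holding at least 1 summit numbered 11540, 12229 and 12140 in CTRL and 12336, 12916 and 12813 in VPA. Here every VPA library lay above every CTRL library (11970 ± 375 against 12688 ± 309, exact p = 0.1, the smallest possible with 3 against 3 libraries, adjusted p = 0.2). When only the 26299 strongest peaks of each list were kept, the difference of 718.7 genes shrank to 50. Leaving out the first 2.5 kb of each gene, the means were 5951 in CTRL and 7634 in VPA, 1683 genes apart. That count was made on the full lists only, not at equal list length, and was not tested.

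Long non-coding RNA (lncRNA) promoters were counted when they lay over 2 kb from any protein-coding TSS. Of 15126, 1724, 2101 and 2051 had a peak in CTRL and 2068, 2498 and 2460 in VPA, so that VPA replicate 1 lay within the CTRL range (means 1959 ± 205 and 2342 ± 238 with the SD over 3 libraries, two-sided exact permutation p = 0.2, adjusted p = 0.267). The ratio of the means was 1.20 for lncRNA promoters and 1.03 for protein-coding promoters, a difference that was not tested. At equal list lengths the difference between treatments fell from 383.3 to 92 lncRNA promoters.

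**Figure D1:**
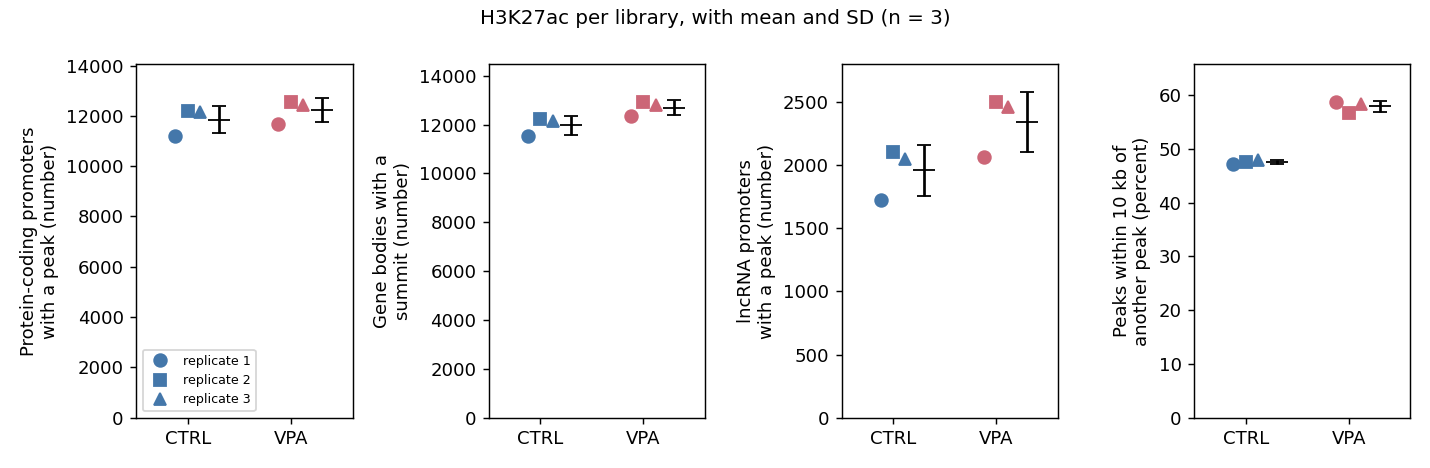
Number of protein-coding promoters, gene bodies and lncRNA promoters with H3K27ac, and percent of peaks within 10 kb of another peak, in each library (symbols, by replicate number) with the mean and SD of the 3 libraries of a treatment (black). Gene bodies and neighbouring peaks do not overlap between CTRL and VPA, and both kinds of promoter do.

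The presence of a peak was then counted for each promoter in 0 to 3 libraries per treatment. A peak was found in all 6 libraries at 11105 protein-coding promoters and in none at 6281. Of the rest, 1028 had a peak in more VPA than CTRL libraries and 211 in more CTRL than VPA libraries. A total of 54 promoters (0.283% of all) were gained, that is, peaks were found there in every VPA library and in no CTRL library, and 0 (0%) were lost by the reverse rule. The nearest to a loss was FRK, a tyrosine kinase of the SRC family, with a peak in 3 CTRL libraries and 1 VPA library. For lncRNAs the counts were 890 promoters with more VPA and 126 with more CTRL libraries, 72 gained (0.476%) and 2 lost (0.0132%). Single promoters cannot be tested below an exact p of 0.1 in this way.

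Gained promoters were mostly weak. Their summits had 14 to 387 fragments in the VPA libraries, with a median of 35.2 over the 54 means, against 265 to 360 for the median promoter of a VPA library. For 14 of them a CTRL peak lay within 2.5 kb of the TSS, and these included the 4 that ranked highest. They are ranked by the strength of the peak within each VPA list. PDP2, a phosphatase that activates pyruvate dehydrogenase, had 268, 187 and 188 fragments in VPA, AKR1B15, an aldo-keto reductase, 121, 155 and 138, and LYPD3, a cell surface protein of epithelia, 197, 168 and 170. All 3 had a CTRL peak within 2.5 kb in every CTRL library. The peak of RGL3, an effector of RAS-like GTPases, had 119, 118 and 119 fragments, with a CTRL peak that near in 2 libraries.

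The other 40 had no CTRL peak within 2.5 kb. They included LAT2, an adaptor of immune receptor signalling (49, 63 and 59 fragments in the VPA libraries), SCNM1 and TNFAIP8L2, which start 15 bases apart and share a peak (49, 68 and 46), and CCDC92B (89, 58 and 65). IFRD1, a transcriptional coregulator, had 30, 34 and 29. By the same rule the ranking also named BST2, an antiviral membrane protein, and its divergent neighbour MVB12A, a subunit of the ESCRT-I complex, with a shared peak of 36, 85 and 78 fragments and a CTRL peak within 2.5 kb in 2 libraries, and the gene ENSG00000287908. The TSS is the outermost annotated start of a gene, so a gained promoter does not mean that the gene lacked H3K27ac in CTRL. CTRL replicates 1, 2 and 3 had summits inside the gene bodies of IFRD1 (1, 2 and 2), SCNM1 (1, 1 and 1) and LAT2 (0, 1 and 0). TNFAIP8L2 and CCDC92B had none there in CTRL. Among the members of the gene lists, CACNA1A, the pore subunit of the P/Q-type calcium channel, was gained with 25, 41 and 36 fragments, as was 1 gene of the ZNF family. In the 501 bases around the TSS, gained promoters had a median of 7 CG (quartiles 5 and 13.8), promoters without any peak 8, and promoters with a peak in all 6 libraries 44.

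Levels were compared at the 11105 promoters with a peak in all 6 libraries. The planned measure, the fold enrichment of the highest peak, called 3 promoters (limma with Benjamini-Hochberg adjustment over all promoters): ZFYVE26 (log2 change 2.43), and HOXC10 and the overlapping gene ENSG00000273049 (−1.48 for the peak they share). With the replicate number as a block it called 438 higher and 359 lower. The labels do not say that equal numbers pair libraries, and only replicate 1 was set apart by its values. Fold enrichment varied within treatments by an SD of 0.361 on the log2 scale and the fragments over the summit by 0.158, so the fragments were used for genes and gene groups, a choice made after both had been seen.

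Relative to the median promoter of each library, 2059 promoters rose (18.5%) and 2633 fell (23.7%) in fragments over the summit (limma, adjusted p under 0.05). The median promoter itself had fewer fragments in VPA, by −0.38 on the log2 scale before centring. Without centring 93 promoters were higher and 2511 lower, and divided by the background coverage 74 were higher and 2838 lower. All changes below are relative to the median promoter. Centring added 0.37 to every promoter, so a relative rise smaller than that is a decrease in fragments. The change went with the level of the promoter. With promoters put into 5 classes of near equal size by the geometric mean of fragments, in the lowest class (19.7 to 199) 905 rose and 88 fell (median 0.29), and in the highest class (513 to 2147) 34 rose and 1347 fell (median −0.26). Across promoters, which are not independent replicates and of which 29.9% share a peak with another promoter, the Pearson correlation of level and change was −0.59 (n = 11105).

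**Figure D2:**
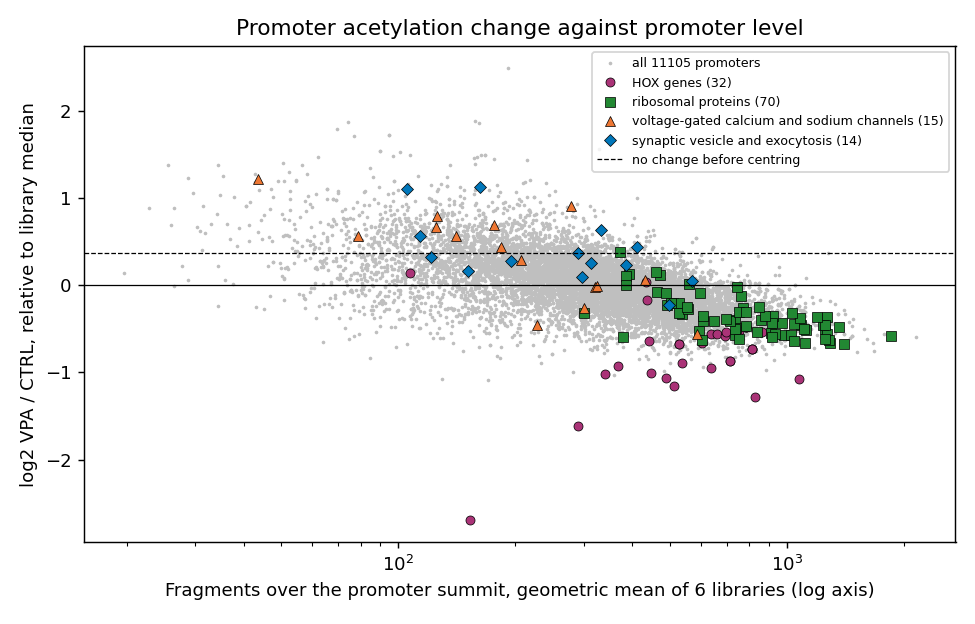
Change of H3K27ac (log2 VPA over CTRL fragments, relative to the library median) against the geometric mean of fragments over the summit for 11105 promoters (grey), with 4 gene groups in colour; the dashed line marks no change before centring. Most HOX promoters lie at or below the lower edge of all promoters of a like level, with HOXD1, HOXB13 and HOXC13 as exceptions, ribosomal protein promoters lie with the high promoters, and ion channel and synaptic promoters lie mostly above 0.

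The largest falls were in the HOX clusters, whose transcription factors set position along the body axis. Of 39 HOX promoters, 32 had a peak in all 6 libraries, and 29 of these fell (90.6%) and 0 rose. The median was −0.70, compared with −0.01 over all promoters tested, of which 23.7% fell. The median HOX level of 637.2 fragments lies in the highest of the 5 classes, where 60.7% of all promoters fell and the median was −0.26. The HOX values rest on 26 separate sets of peak values, since neighbouring HOX genes share peaks. All 32 were below 0 before centring too. HOXB9 had 2219, 1635 and 1509 fragments in CTRL and 832, 558 and 595 in VPA. Each VPA library was thus below every CTRL library, and the change was −1.07 ± 0.06 (SE, adjusted p = 7.80e-05). HOXB2 went from 987, 742 and 710 to 345, 285 and 267 (−1.07 ± 0.06, adjusted p = 8.50e-05). HOXC11 went from 730, 465 and 486 to 248, 182 and 207, and HOXD8, whose promoter is printed above, from 996, 647 and 582 to 380, 228 and 246 (both −1.01). At these 4 promoters the treatments were fully apart.

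The clusters differed in size of change. The HOXC cluster had a median of −0.98 with 7 of 8 promoters lower, HOXD −0.87 with 5 of 6, HOXB −0.78 with 7 of 8, and HOXA −0.57 with 10 of 10. The promoters that did not pass the test were HOXC13 (−0.17), HOXB13 (0.04) and HOXD1 (0.14). Larger changes were fitted at other HOX promoters, at some of which a peak was shared with a neighbouring gene in only part of the libraries. HOXC6 had 111, 989 and 785 fragments in CTRL and 57, 60 and 44 in VPA (−2.69 ± 0.77, adjusted p = 0.0212), where the values of CTRL replicates 2 and 3 are those of a peak that also overlaps HOXC10. The outermost annotated start of HOXC6 (chr12:53990624), used here, lies just past the end of HOXC10 (53990279). Its window therefore includes the end of HOXC10, and starts further inside HOXC6 were not measured. The adjusted p of HOXC6 reached 0.0764 when 1 library was left out. HOXC8 went from 565, 403 and 833 to 179, 127 and 137 (−1.61), HOXB8 from 1272, 1635 and 1509 to 571, 414 and 433 (−1.28), and HOXC10 from 847, 989 and 785 to 376, 281 and 260 (−1.16). These 3 promoters, and HOXC6, HOXC11, MKX and SP9, had no summit inside their window in at least 1 library. Outside the clusters, the homeobox gene MKX, a regulator of tendon development, went from 276, 208 and 170 to 75, 85 and 77 (−1.07), and SP9, a transcription factor of forebrain interneurons, from 806, 528 and 464 to 306, 193 and 183 (−1.03). Both were fully apart between treatments.

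Housekeeping groups with high levels were compared with the class of promoters of like level. Of 70 ribosomal protein promoters, 53 fell and 1 rose (median −0.40), and 69 were below 0 before centring. Their median level of 767.2 fragments places them in the highest of the 5 classes, where 60.7% of all promoters fell. In glycolysis 7 of 12 fell (58.3%) and 1 rose (median −0.28), at a median level of 642.8 fragments in the same class, so the share that fell was close to that of the class. LDHA, the lactate dehydrogenase of glycolytic cells, had 1033, 851 and 802 fragments in CTRL and 580, 428 and 457 in VPA (−0.51 ± 0.06, adjusted p = 0.000439). The exception was ALDOC, printed above, which rose from 36, 47 and 45 to 79, 97 and 99 fragments (1.47 ± 0.28, adjusted p = 0.00337). Replication-dependent histone genes fell at 24 of 52 promoters and rose at 3 (median −0.23, on 32 separate sets of peak values), and DNA replication licensing genes fell at 6 of 19 (31.6%) and rose at 1 (−0.11), beside 30.6% of all promoters in their level class. The histone genes, at 46.2%, had a median level of 508.6 fragments, near the upper edge (513) of the class in which 30.6% fell. In the class above it 60.7% fell, so the share of the histone genes lies between these values.

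The enzymes that place, read and remove the mark were taken as a group of their own. Of 11 promoters of acetyltransferases and acetyl-lysine readers, 6 fell (54.5%) and 0 rose (median −0.45), at a median level of 522.0 fragments. That median is close to the edge between the 2 highest classes, at 513 fragments. Above the edge 60.7% of all promoters fell and in the class below it 30.6%, and the share of the group lies between these values. EP300 went from 1477, 994 and 885 fragments in CTRL to 724, 427 and 444 in VPA (−0.71 ± 0.10, adjusted p = 0.000960), with every VPA library below every CTRL library. KAT6B went from 1286, 880 and 820 to 664, 413 and 452 (−0.60), and BRD2 from 1570, 1247 and 1139 to 862, 639 and 720 (−0.46). CREBBP, KAT2B and BRD3 fell as well, by 0.45, 0.53 and 0.24 on the log2 scale. Of the 7 histone deacetylase promoters with a peak in all 6 libraries, HDAC11 rose (238, 213 and 179 fragments in CTRL, 244, 217 and 199 in VPA, 0.44 ± 0.09, adjusted p = 0.00544), a value of 0.07 before centring. The other 6, HDAC1, HDAC3, HDAC4, HDAC5, HDAC9 and HDAC10, did not pass the test and lay between −0.16 and 0.22.

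Neuronal groups had low to middle levels, where more promoters rose: 40.7% in the lowest class, 29.2% in the second and 15.3% in the third, and 18.5% over all promoters. Synaptic vesicle and exocytosis genes rose at 8 of 14 promoters (57.1%) and fell at 1 (median 0.30), at a median level of 293.6 fragments in the third class. SYT1, the calcium sensor of vesicle release, had 121, 114 and 140 fragments in CTRL and 239, 200 and 197 in VPA (1.13 ± 0.16, adjusted p = 0.000996). SV2A, a vesicle glycoprotein, had 83, 83 and 79 and then 139, 140 and 128 (1.10). At both promoters all VPA libraries exceeded all CTRL libraries. Voltage-gated calcium and sodium channel genes rose at 7 of 15 promoters (46.7%, second class) and fell at 2 (median 0.44), among them SCN9A, the sodium channel of pain-sensing neurons, with 127, 107 and 93 fragments in CTRL and 167, 126 and 147 in VPA (0.80). The VPA and CTRL values of SCN9A overlap by 1 fragment before scaling. Genes of the neuronal cytoskeleton and axon rose at 6 of 12 (50%, first class) and fell at 2 (median 0.40), with MAP1B, a microtubule-associated protein, at 0.68 and NLGN1, a synaptic adhesion protein, at −0.64. Before centring, the medians of these 3 groups were −0.07, 0.07 and 0.03.

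C2H2 zinc finger genes of the ZNF family, many of which repress transposable elements, rose at 127 of 368 promoters and fell at 46 (median 0.16, and −0.21 before centring). Semaphorins, plexins and ephrins, which guide axons, rose at 14 of 34 and fell at 6 (0.18), collagens at 4 of 13 with 3 falls (0.12), potassium channels at 3 of 20 with 2 falls (0.06), and solute carriers at 43 of 175 with 25 falls (0.06). Proteasome subunits rose at 7 of 39 and fell at 5 (0.04), and mitochondrial ribosomal proteins rose at 13 of 76 and fell at 8 (0.04). The share of a group that rose ran from 15% for potassium channels to 41.2% for semaphorins, plexins and ephrins, beside 18.5% of all promoters, and the medians before centring were below 0. By median level, semaphorins, plexins and ephrins and collagens (30.8% rose) were in the lowest class, where 40.7% of all promoters rose. ZNF genes (34.5%) and potassium channels were in the second, at 29.2%. Solute carriers (24.6%), proteasome subunits (17.9%) and mitochondrial ribosomal proteins (17.1%) were in the third, at 15.3%. With the replicate block 5 potassium channel promoters rose, and 14 mitochondrial ribosomal protein promoters fell. Cadherins (1 rise and 1 fall of 4), glutamate and GABA receptors (0 of 4) and keratins (2 rises of 3, sharing peaks) had few promoters to test. Olfactory receptors had a peak in no library at 413 of 414 promoters, and clustered protocadherins at 50 of 53.

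Single promoters with the largest rises were of mixed function. MAST1, a kinase of neuronal microtubules, had 107, 95 and 80 fragments in CTRL and 333, 223 and 253 in VPA (1.88 ± 0.10, adjusted p = 7.80e-05). SLITRK1 had 42, 44 and 42 and then 123, 114 and 106 (1.79 ± 0.18, adjusted p = 0.000270). C5AR1, the receptor of complement component C5a, had 39, 47 and 47 and then 117, 142 and 119 (1.87), and RAB36, a small GTPase, had 61, 62 and 57 and then 158, 134 and 116 (1.54). In each of these the 2 treatments were fully apart, and each stayed above 0 before centring, at 1.51, 1.42, 1.51 and 1.17.

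The remaining large rises lost their summit from the promoter window in at least 1 library. ZFYVE26, a protein of autophagosome and lysosome turnover, went from 93, 96 and 88 to 434, 370 and 397 fragments (2.48 ± 0.13, adjusted p = 7.80e-05), NIPAL3 and STPG1, which share a peak, from 74, 57 and 49 to 164, 167 and 126 (1.72), and TMEFF2, a membrane protein of the brain, from 61, 53 and 35 to 144, 128 and 100 (1.71). CNTNAP1, a protein of the axon membrane, had 116, 89 and 86 in CTRL and 112, 411 and 429 in VPA (1.86), and LRRC23, a protein of the sperm flagellum, had 243, 230 and 184 and then 274, 658 and 678 (1.56). VPA replicate 1 showed no such rise at CNTNAP1, and with 1 library left out the adjusted p reached 0.0814 for CNTNAP1 and 0.0518 for LRRC23.

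**Figure D3:**
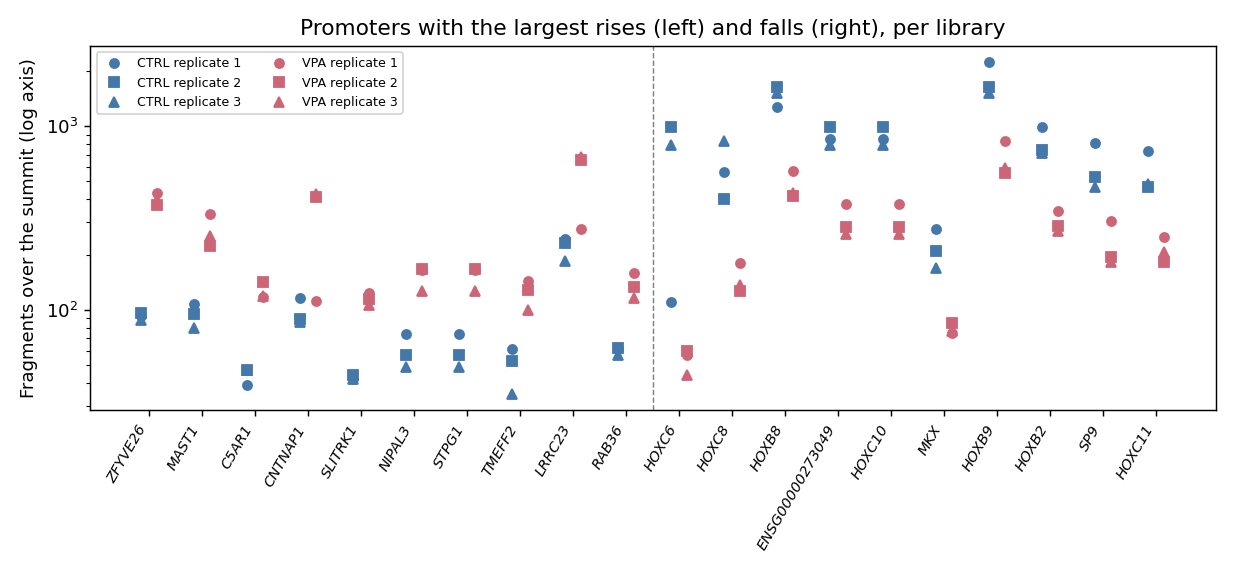
Fragments over the summit (log axis) at the promoters with the 10 largest rises (left of the dashed line) and 10 largest falls (right), in each library by treatment (colour) and replicate (symbol). CTRL and VPA are fully apart at all of them except CNTNAP1; at LRRC23 and HOXC6 replicate 1 stands apart from replicates 2 and 3 in VPA and CTRL, respectively.

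Positions around the start were on average covered by a peak more often in VPA. Any peak of a library counts here, so wider promoter peaks and separate peaks nearby are not told apart. These shares were not computed at equal list length. Around the TSS of promoters with a peak in all 6 libraries, a peak covered the position 1 kb downstream at 71.6 ± 7.98% of promoters without VPA and 80.1 ± 7.81% with it (SD over 3 libraries each). At 2 kb downstream the shares were 23.97 ± 6.18% and 33.4 ± 9.01%, and 2 kb upstream 9.45 ± 2.75% and 15.4 ± 4.79%. These ranges overlap, since replicate 1 was lower in both treatments, but the VPA library exceeded the CTRL library of the same number at each of these 3 positions. At 10 kb upstream the shares were 4.09 ± 0.528% in CTRL (3.48, 4.48 and 4.30% in replicates 1, 2 and 3) and 6.15 ± 0.783% in VPA (5.27, 6.75 and 6.44%), where every VPA library lay above every CTRL library.

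**Figure D4:**
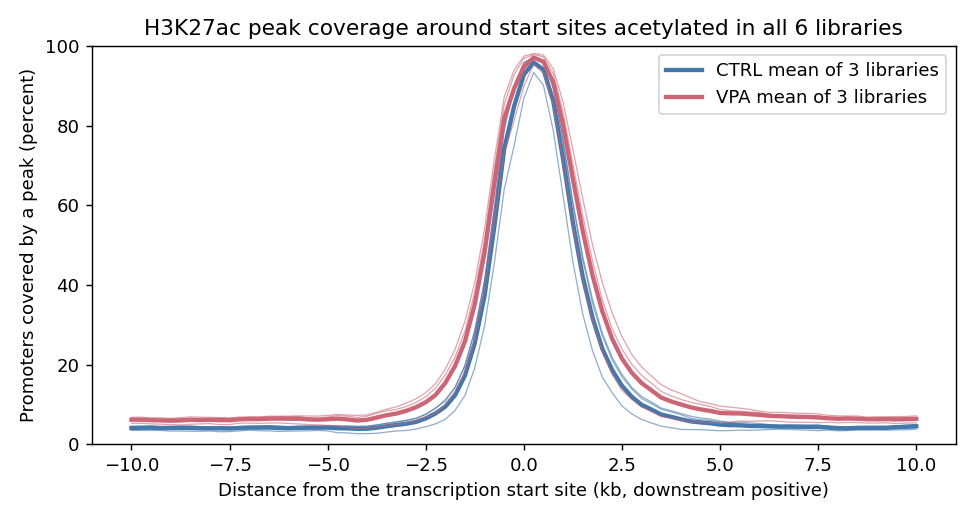
Percent of promoters acetylated in all 6 libraries that are covered by a peak at each distance from the TSS (thin lines, libraries; thick lines, means of 3). VPA lies above CTRL on both sides, with 80.1% against 71.6% at 1 kb downstream and 6.15% against 4.09% at 10 kb upstream.

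Within genes, summits were counted over the whole gene body in 11121 genes with a mean of at least 1 summit. In 1075 genes (9.67%) every VPA library had more summits than every CTRL library, and in 27 (0.243%) fewer. By limma on log2(summits + 0.5), 235 genes rose (2.11%) and 8 fell (0.0719%). Of these 243 calls, 147 were genes in which each treatment had the same count in all 3 libraries and the treatments were 1 summit apart, 112 of them with 1 summit in CTRL and 2 in VPA. Such genes have a spread of 0 between libraries. Of the 243 genes, 66 were also called by the acetylated length of the gene. With all lists limited to the same number of peaks 50 genes rose and 41 fell. CTCF summits, counted in the same way in the CTCF libraries of the same treatments, rose in 12 of 9784 genes (0.123%) and fell in 23 (0.235%).

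Gains were ranked by the rise in mean summits, which favours genes with many summits. The 10 genes with the largest rises span 72.4 to 1129 kb. LRMDA, a gene of melanocyte differentiation, spans 1129 kb on chromosome 10 and held 42, 42 and 45 summits in CTRL and 61, 62 and 57 in VPA, with 57.6 ± 7.02 kb and 83.6 ± 10.6 kb under peaks (SD, n = 3 each). ARID1B, a subunit of the SWI/SNF chromatin remodelling complex, went from 20, 18 and 17 to 27, 27 and 30 summits. B4GALT5, a galactosyltransferase, went from 6, 6 and 5 to 13, 16 and 15, and its acetylated length from 5.48 ± 0.303 to 13.2 ± 1.56 kb. MAP4, a microtubule-associated protein, went from 7, 7 and 7 to 20, 15 and 15, and COL26A1, a collagen, from 1, 2 and 1 to 7, 9 and 10. Genes were named here only if their adjusted p was under 0.05 and the treatments were fully apart, so both hold by choice.

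The other 5 largest rises were SEMA3C, a secreted axon guidance protein (26, 24 and 26 against 33, 33 and 33), ARID4B, a subunit of the SIN3 deacetylase complex (8, 8 and 7 against 18, 14 and 14), PPP4R2, a regulatory subunit of protein phosphatase 4 (3, 2 and 3 against 12, 9 and 8), NFIA, a transcription factor (19, 20 and 19 against 25, 26 and 27), and ARHGAP35, a GTPase-activating protein (6, 5 and 5 against 13, 12 and 11). Adjusted p-values of these 10 genes were 0.00964 to 0.0485 by limma, and with the replicate block only that of ARHGAP35 stayed under the threshold (0.0303, the others 0.134 to 0.240). No called fall with the treatments apart was larger than 1 summit, and ties were ordered by gene symbol. The 5 falls named by this order, ASB3, ATP1B1, MAF, METTL7A and MOB3B, were each by 1 summit. With the replicate block ASB3 (adjusted p = 0.0553) and MAF (0.0989) were no longer called, and the acetylated length of ATP1B1 and METTL7A was higher in VPA. Summits of LRMDA, ARID1B, SEMA3C, ARID4B and NFIA were no longer higher when all lists had the same length.

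Summits were also summed by gene length. The ratio of mean summits, VPA over CTRL, was 1.09 in genes under 10 kb (2024 ± 123 against 2209 ± 99.7 summits), 1.29 from 10 to 50 kb, 1.41 from 50 to 200 kb (8765 ± 247 against 12369 ± 110.0) and 1.32 over 200 kb (4105 ± 383 against 5437 ± 425, SD, n = 3 each). In the classes over 10 kb every VPA library lay above every CTRL library, whereas VPA replicate 1 (2094) lay below CTRL replicate 2 (2113) in genes under 10 kb. The difference between length classes was not tested.

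Merging the peaks of the 6 libraries gave 55382 regions, of which 28482 were found in more VPA than CTRL libraries and 4231 in more CTRL than VPA libraries. By the same rule as for promoters, gained regions numbered 2284 (4.12%) and lost ones 77 (0.139%). At equal list length there were 541 gained and 253 lost regions, and without VPA replicate 1, where 2 VPA libraries suffice, 5636 gained and 140 lost. Gained regions lay inside 1109 gene bodies, of which 139 held at least 2 and 23 at least 3. A gene body held 52.5% of gained regions, less than the 72.5% of regions found in all 6 libraries. COL26A1, IL6R, the interleukin 6 receptor, and KAT6B, an acetyltransferase whose promoter fell, held 4 each. A gained region was narrow, with a median of 1037.5 bp against 2558 bp for regions in all 6 libraries. Of gained regions 35.2% lay within 10 kb of a region in all 6 libraries, beside 24.6% of the regions in all 6 libraries themselves.

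Neighbouring gained regions were then joined into runs; whether they lie closer together than their number alone would place them was not tested. Linking gained regions with at most 100 kb between them gave 371 runs of 2 or more, with 942 of the 2284 regions (41.2%), and 1342 single regions. Of the runs, 120 held 3 or more. By the distance between summits, 40.8% of gained regions, 85.1% of the 18407 regions in all 6 libraries and 10.4% of the 77 lost regions had another of their class within 100 kb, so the share was larger in larger classes. The run with the most gained regions held 8 over 178 kb of chromosome 16 (29584325 to 29762627, hg38) around SPN, a sialoglycoprotein of leukocytes, QPRT, an enzyme of NAD synthesis, and C16orf54. There CTRL libraries had 6, 6 and 8 peaks, and VPA libraries 18, 20 and 22. Runs of 6 lay at IZUMO2 on chromosome 19 (2, 6 and 4 against 12, 13 and 13) and in NEBL on chromosome 10 (4, 4 and 3 against 15, 15 and 12). In each of these 3 runs every VPA library had more peaks than every CTRL library, which the choice of gained regions favours.

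Over all peaks, 47.2, 47.5 and 48.0% of those in CTRL and 58.7, 56.7 and 58.4% in VPA had another peak within 10 kb (exact p = 0.1, adjusted p = 0.2). The direction turned at equal list length, with means of 44.2% and 41.9%.

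At regions present in all 6 libraries, the relative change in level differed by position. Of 8684 promoter regions, 618 (7.12%) rose and 3515 (40.5%) fell (median −0.18, limma on centred fragments). Inside genes 707 of 4676 (15.1%) rose and 630 (13.5%) fell (0.16), and between genes 668 of 3693 (18.1%) rose and 439 (11.9%) fell (0.20). Over all 18407 regions 2194 rose and 4996 fell, and with the replicate block 4579 and 6505. Fragments per region are here relative to the median region of each library, so a relative rise can be a decrease in fragments. Positions were not matched for level, which went with the change at promoters.

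Gained regions away from promoters also differed in sequence from regions in all 6 libraries. The 201 bases around the summit held a median of 3 CG and 51.2% GC in the 2244 gained regions over 1 kb from a TSS, and 7 CG and 55.7% GC in the 9723 such regions found in all 6 libraries. The GC box GGGCGG, searched on both strands, lay in 8.51% and 24.9% of these windows, and in 20.0% of all regions. AGGTCA, a half-site of nuclear receptors, lay in 26.96% and 17.2% (19.7% of all regions). Much of it was the longer run AGGTCAGGA, which Alu repeats carry, found in 14.7% and 6.45%. The 77 lost regions had the same medians as the gained ones, 3 CG and 51.2% GC, so these are not particular to gains. In lost regions GGGCGG lay in 5.19% of windows, AGGTCA in 11.7% and AGGTCAGGA in 2.60%. The summit of the highest ranked gained region, near LAPTM5 (chr1:30778835-30779035, hg38, plus strand), is shown with its 6 CG in capitals:
LAPTM5 flank: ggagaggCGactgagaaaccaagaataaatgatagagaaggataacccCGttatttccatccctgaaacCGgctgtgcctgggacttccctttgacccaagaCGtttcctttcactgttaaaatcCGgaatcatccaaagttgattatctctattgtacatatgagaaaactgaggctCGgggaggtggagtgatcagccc

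Chromosomes were compared last. The number of peaks rose on 22 of 22 chromosomes (limma, adjusted p = 1.45e-06 to 0.000147), from 1.32 times on chromosome 8 to 1.53 times on chromosome 20. At equal list lengths no chromosome was called (6 at an unadjusted p under 0.05). The share of a library's peaks on each chromosome changed little, and 0 of 22 passed the test (4 at an unadjusted p under 0.05). Chromosome 20 held 2.52 ± 0.0623% of peaks in CTRL and 2.74 ± 0.0944% in VPA (adjusted p = 0.124), and chromosome 22 held 2.44 ± 0.0534% and 2.55 ± 0.00412% (adjusted p = 0.226). With the replicate block 9 shares passed the test. Chromosomes 1, 19, 20 and 22 were then higher in VPA and chromosomes 2, 8, 9, 10 and 18 lower (adjusted p = 0.0311 to 0.0495).

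Gained regions were most frequent on chromosomes rich in genes. Chromosome 19, with 25.2 protein-coding genes per Mb, had 2.90 gained regions per Mb, chromosome 17 had 1.97 and chromosome 20 had 1.37, while chromosome 21 had 0.343 and chromosome 18 had 0.373. Across the 22 chromosomes, gained regions per Mb and genes per Mb had a Pearson correlation of 0.96, and 0.92 without chromosome 19. Per 100 regions found in all 6 libraries, gained regions ranged from 7.17 on chromosome 21 to 18.8 on chromosome 20, and the correlation with gene density was 0.60. The median change of promoter fragments was highest on chromosome 19 (0.17), where many ZNF genes lie, and lowest on chromosomes 18 (−0.12) and 13 (−0.12). Its correlation with gene density was 0.85, and 0.72 without chromosome 19. These correlations share the same 6 libraries and are given as a description.

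**Figure D5:**
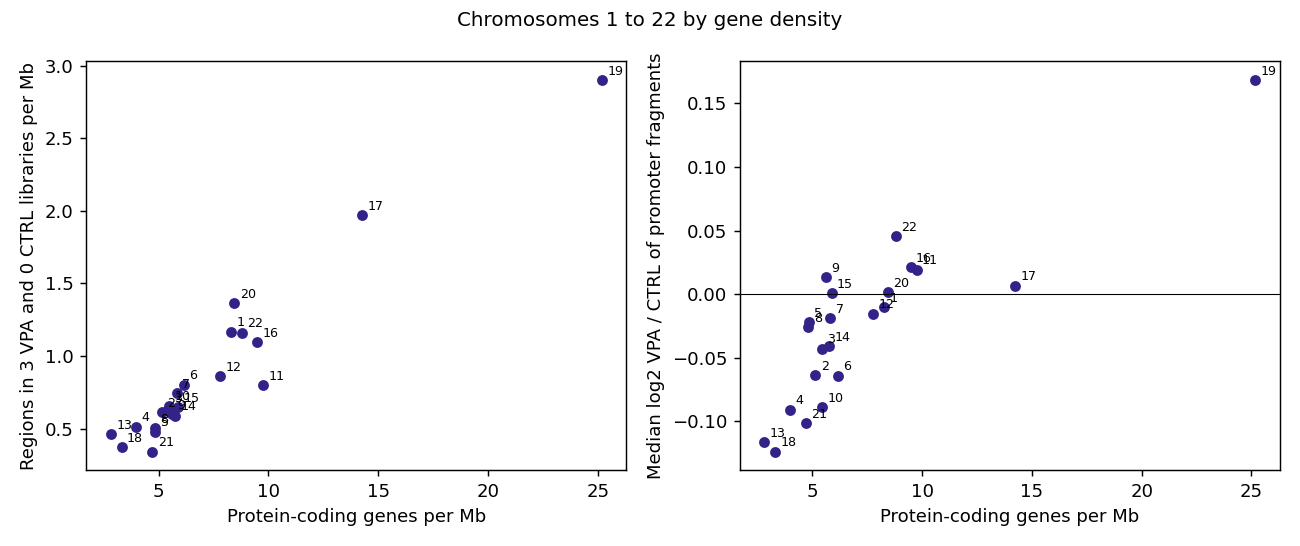
Gained H3K27ac regions per Mb (left) and median change of promoter fragments relative to the library median (right) against protein-coding genes per Mb, with 1 point for each of chromosomes 1 to 22. Chromosome 19 is highest in both, with 2.90 regions per Mb and a median of 0.17.

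In windows of 1 Mb, with the list length taken out, 1 of 2278 passed the test. It lay on chromosome 8 (36000001 to 37000000), holds KCNU1, a potassium channel of sperm, and had 1, 1 and 1 summits in CTRL and 6, 9 and 8 in VPA (log2 change 1.94, limma adjusted p = 0.0323). With the replicate block 106 windows were higher and 119 lower.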

How the data were processed

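H3K27ac was measured by ChIP-seq in HEK293T cells. Per the labels and methods, the authors aligned reads to hg38 with Bowtie2 and called narrow peaks with MACS3 3.0.0a7 in each library. The deposited lists give for each peak a fold enrichment, a −log10 p-value, a −log10 q-value and a score. Read totals and input files were not used here. The members and gene lists were chosen with earlier results of these data known.

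Fragments over each summit were recovered from the deposited fold and −log10 p-value and were whole within 0.05 at all peaks checked. Genes were GENCODE v44, 19103 protein-coding on chromosomes 1 to 22, with promoters 1 kb on either side of the TSS. The TSS was the outermost annotated start of the gene, and other starts inside a gene were not used. Printed promoters are from RefSeq. Peak lists were compared with limma 3.58.1 (R 4.3.3) and Benjamini-Hochberg adjustment (threshold 0.05), on log2(summits + 0.5) for genes with a mean of at least 1 summit and windows of 1 Mb with at least 2, and on log2 values centred on each library's median for promoters and regions. Single counts were compared by exact permutation tests, two-sided. The scripts were tested on simulated data. Fold enrichment was the first promoter measure, and fragments were used for naming genes after both had been seen.

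Named were the 12 highest ranked gained promoters, the 10 largest rises and 10 largest falls of promoters, the 10 largest rises and 5 largest falls (ties by symbol) in gene body summits with groups apart, called windows, the 5 longest runs, and members of the lists. Some of these are not reported here. Same-numbered libraries deviated together (correlations 0.170 to 0.725), so the numbers were taken to pair the libraries, although libraries numbered 2 and 3 correlated across numbers to a like extent (0.0660 to 0.651) and only replicate 1 was set apart. No 2 lists shared more than 0.014% of intervals. Alternatives were equal list lengths (26299 peaks), a −log10 q of at least 3, other centring, a replicate block, other filters and leaving out libraries.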

Additional observations from a re-analysis of the deposited data

How the results depend on the processing

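Depth is known only through the background coverage, and weak peaks may be missed in any list. Without the replicate block, with 3 libraries a side, an exact p cannot go below 0.1, and with it below 0.25. Of the values that answer a comparison, 85 stayed within their limit (1 SD between libraries for a difference, 1.5 times for a count of calls), 43 moved past it and 8 turned in direction. The 85 include the replicate block for promoters, gene bodies, lncRNA promoters and neighbouring peaks. There a block leaves the difference of means unchanged, so these could not move. With the wide SD of promoter counts, a difference of 71.7 promoters at equal list length and of 62.2 to 648.5 with 1 library left out (lowest without CTRL replicate 1), against 377.7, stayed within it. The causes were not tested. With the replicate block, promoter fold enrichment made 797 calls (438 higher, 359 lower), chromosome shares 9, windows of 1 Mb 225 (106 higher, 119 lower) and region fragments 11084. At equal list length the differences (VPA minus CTRL) were 50 genes with a peak, 92 lncRNA promoters and −2.32 percentage points of peaks within 10 kb, with 541 gained and 253 lost regions, 91 gene bodies and 0 chromosomes called. Peaks with a −log10 q of at least 3 gave 9.31 percentage points and 2 windows, and neighbours within 50 kb gave 6.24. Genes with a peak after the first 2.5 kb differed by 1683. Gene body calls were 372 by acetylated bases, 463 without a filter and 3870 with the list length subtracted (140 higher, 3730 lower). Promoter fold enrichment made 0 calls without centring (3 higher and 8 lower at an unadjusted p under 0.05) and 4692 as fragments. Fragments made 2604 calls without centring and 2912 divided by background. Windows gave 4 calls at a pseudocount of 1 and 0 at a mean of at least 5 summits.

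With 1 library left out, limma called 281 to 657 gene bodies (657 without VPA replicate 1), 0 to 14 promoters by fold enrichment (14 without CTRL replicate 1, 9 without VPA replicate 1, 0 without any of the other 4) and 0 to 4 windows, against 243, 3 and 1. Gained regions were 2843 to 5636 (without VPA replicate 1) and lost ones 106 to 342 (without CTRL replicate 1). Without both libraries of replicate 1, an alternative chosen after seeing the data, there were 6318 gained and 429 lost regions and 1040 gene bodies, 620 promoters by fold enrichment (322 higher, 298 lower) and 7 chromosome shares called. At equal list length the log2 change in summits turned to −0.17 for LRMDA, −0.076 for ARID1B, −0.11 for SEMA3C, −0.32 for ARID4B and −0.16 for NFIA. With the list length subtracted it was −0.015 for LRMDA, −0.11 for SEMA3C and −0.073 for NFIA. In acetylated bases ATP1B1 was at 0.51 and METTL7A at 0.21.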
